A study of Mus musculus with 24 samples.

Results

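The Wnt negative feedback target genes are genes that β-catenin switches on and whose products in turn dampen or tune Wnt signalling. The set held 10 genes, *Axin2*, *Sp5*, *Nkd1*, *Nkd2*, *Notum*, *Znrf3*, *Rnf43*, *Dkk1*, *Lgr5* and *Apcdd1*, taken by name out of the 35007 gene symbols present in both count tables of the study. They were named by their known roles, without a threshold on any measured value, but with earlier results of these data known. The comparison was between withdrawal of the GSK3 inhibitor CHIRON and withdrawal of the MEK inhibitor PD03, after which CHIRON stayed in the medium.

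RNA was sequenced from E14 cells, a wild-type mouse embryonic stem cell (mESC) line of the 129 background, grown on soft or stiff StemBond hydrogels coated with fibronectin. All cells first spent 12 h in 2i + LIF, which held 1 µM PD03 and 3 µM CHIRON, and were collected there (0 h) or at 2 h and 12 h after a change of medium. In CHIRON removal the cells went into PD03 + LIF with 0 µM CHIRON, and in PD03 removal they went into CHIRON + LIF with 0 µM PD03. Each removal had 6 groups of substrate and time with 2 libraries each, 24 in all, and each removal was sequenced as a pool of its own. The 11 libraries used from CHIRON removal had 19393787 to 31111260 counts each, and the 12 of PD03 removal had 16222196 to 26442153. Replicate 1 of stiff at 2 h after CHIRON removal had 171333 counts and was not used, so this group is a single library that was assumed to vary like the others. The labels do not say that replicates were separate cultures, so the p-values measure the spread between these libraries, which may be technical.

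In canonical Wnt signalling a destruction complex that contains GSK3 marks β-catenin for degradation. When GSK3 is blocked, by a Wnt ligand or by CHIRON, β-catenin accumulates and acts with TCF/LEF factors on target genes. Among these targets are inhibitors at each level of the pathway, and in mESCs GSK3 inhibition is used to hold cells in the naïve state.

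The libraries carried the markers of naïve mESCs. The summed level of 8 markers (*Pou5f1*, *Sox2*, *Nanog*, *Esrrb*, *Zfp42*, *Klf4*, *Tfcp2l1*, *Tbx3*) was 5757 to 6351 CPM (TMM-normalised share of the counts of the tested genes) in CHIRON removal and 5846 to 7392 in PD03 removal, and *Tfcp2l1* was the most abundant. Lists of 6 markers each of other cell types were far lower, at 2.28 to 8.4 CPM for primitive endoderm, 7.27 to 32 for neural cells, 8.68 to 27.1 for fibroblasts and 11.1 to 27.5 for mesoderm. Some of these sums moved with time, which was not tested. Neural markers went from 17.2 and 14.2 CPM to 28.9 and 32 on soft and from 15.1 and 18 to 27.7 and 30.3 on stiff substrates by 12 h of CHIRON removal. Over the same time trophoblast markers were at 59.3 to 67.6 CPM at 0 h and 76.8 to 85.2 at 12 h, and fibroblast markers were at 17 to 19 CPM at 0 h, 20.7 to 27.1 at 2 h and 13 to 15.5 at 12 h. In PD03 removal mesoderm markers were at 11.1 to 12.3 CPM at 0 h and 20.8 to 27.5 at 12 h, and naïve markers at 7069 to 7211 at 0 h and 5846 to 6234 at 12 h. Trophoblast markers summed to 33.6 to 85.2 CPM, most of it *Tfap2c*, and no marker of any list was at 0 in every library. As a check of the labels, 6 of 7 targets of ERK rose 2 h after PD03 removal on each substrate, such as *Dusp6* with a log2 fold change of 1.90 on soft substrates.

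At 0 h, before any removal, *Sp5* had the highest level of the members per kilobase of exon in the experiment of CHIRON removal, with 69.8 ± 9.11 CPM per kb (SD, n = 4 libraries, 2 per substrate). *Axin2* followed with 33.5 ± 1.67, *Notum* with 14.5 ± 0.441, *Znrf3* with 9.48 ± 0.607, *Apcdd1* with 4.05 ± 0.45, *Dkk1* with 2.54 ± 0.231 and *Nkd1* with 1.66 ± 0.416 CPM per kb. The ranges of these neighbours did not overlap. *Rnf43* (0.218 ± 0.0772), *Lgr5* (0.187 ± 0.0248) and *Nkd2* (0.138 ± 0.0124 CPM per kb) were the lowest, and their order could not be told from their spread. In the same medium in the experiment of PD03 removal *Notum* was highest, with 42.3 ± 1.33 CPM per kb, ahead of *Sp5* with 32.4 ± 1.69 and *Axin2* with 24 ± 1.27 (SD, n = 4). Experiment and sequencing pool cannot be told apart here, so levels were not compared between the removals, and each response was set against its own 0 h libraries.

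After CHIRON removal the members split. *Sp5* and *Axin2* passed the test as lower at 2 h and 12 h, and *Dkk1*, *Nkd1*, *Rnf43* and *Znrf3* as lower at 12 h only. *Notum* was higher at 12 h, and *Nkd2*, *Lgr5* and *Apcdd1* did not pass the test against 0 h on either substrate. At 2 h the log2 fold change of *Dkk1*, −0.62 on soft and −0.73 on stiff substrates, did not pass but was as large as that of *Axin2* (−0.55 and −0.57). Whether the members differed in their timing was not tested. In these bulk libraries fewer cells that express a gene and less RNA per cell cannot be told apart. At 2 h, 2 of 10 members fell on soft substrates, where 0.184% of the 14097 genes tested were called in either direction and 0.0638% as lower (edgeR's quasi-likelihood test, Benjamini-Hochberg adjusted p under 0.05). The same genes were the 2 of 10 that fell on stiff substrates, where 0.0993% of genes were called and 0.0497% were lower. At 12 h, 6 of 10 members fell and 1 rose on soft substrates, where 18.5% of genes were called, 8.02% as lower and 10.4% as higher. On stiff substrates 6 fell and 1 rose, and 17.6% of genes were called, 8.15% as lower and 9.48% as higher. The median log2 fold change of the 10 members at 12 h was −0.88 on soft and −0.81 on stiff substrates, beside medians of 0.01 and 0.00 over all genes tested. At 2 h these medians were −0.11 and −0.06. The 2 h counts rest on few genes, and leaving out any 1 of the libraries compared gave 9 to 18 called genes on soft substrates in place of 26. On stiff substrates, leaving out either 0 h library gave 5 or 28 genes in place of 14, and the lone 2 h library could not be left out. With the shallow library put back, *Sp5* and *Axin2* did not pass at 2 h on soft (adjusted p = 0.899 and 1) or stiff substrates (0.637 and 0.894, edgeR with Benjamini-Hochberg adjustment, log2 fold changes from −0.56 to −1.06). At 12 h it took away the calls of *Znrf3* on soft and stiff (0.311 and 0.591) and of *Rnf43* and *Notum* on soft substrates (0.216 and 0.11).

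**Figure D1:**
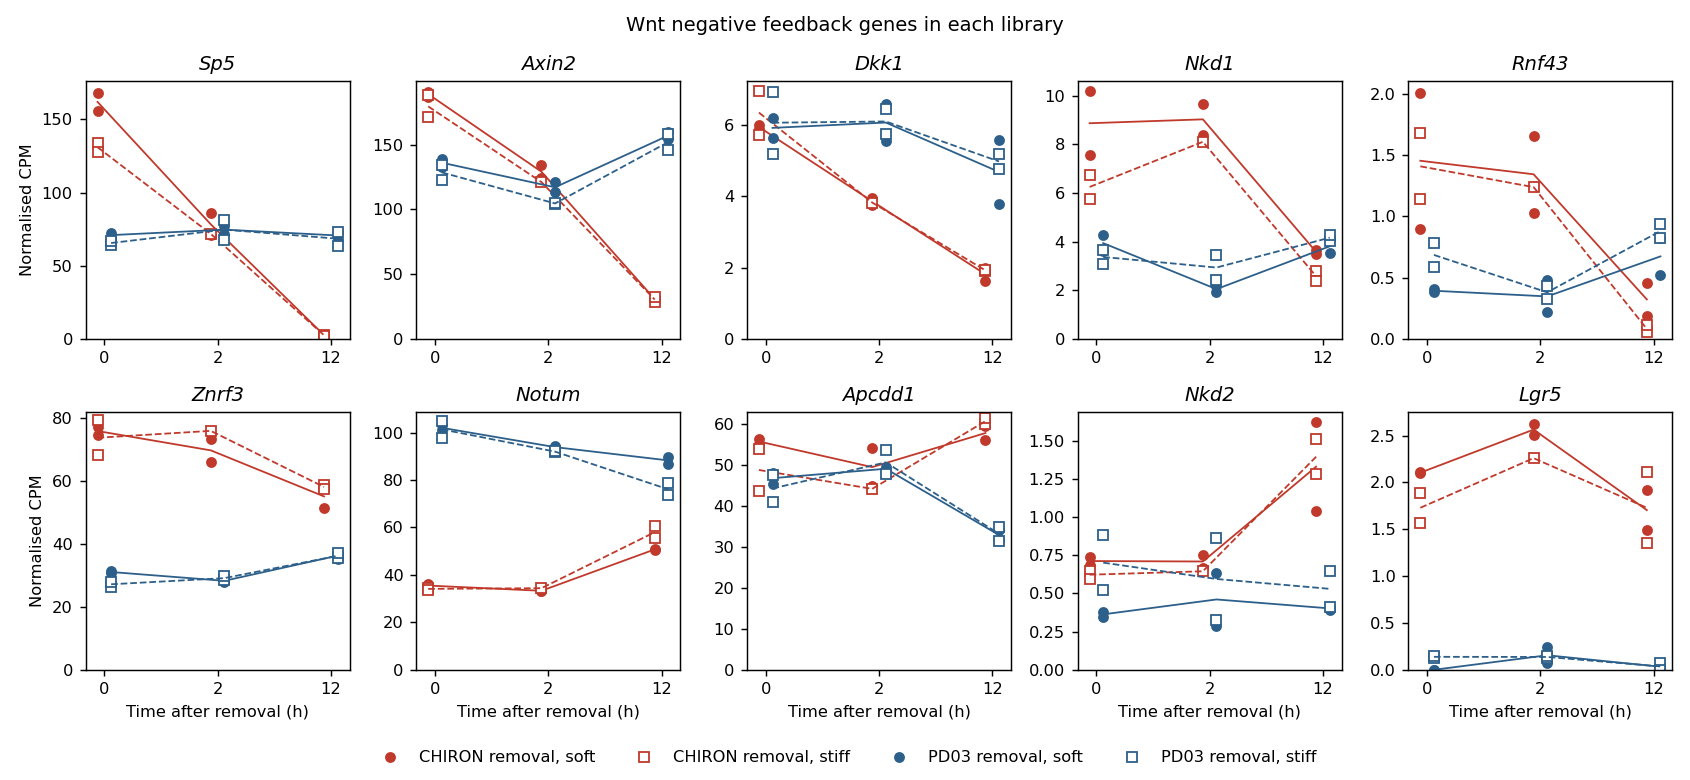
Normalised CPM of the 10 members in each library (vertical axes, linear from 0) against the time after removal (horizontal axes, in h), as points with lines joining group means, in red for CHIRON removal and blue for PD03 removal, filled for soft and open for stiff substrates. *Sp5* goes from 168 and 156 CPM to 2.37 and 2.46 on soft substrates after CHIRON removal, while the PD03 removal libraries stay between 63.6 and 81.4.

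*Sp5* (chr2:70474923-70477729, plus strand, GRCm38) encodes a zinc finger transcription factor of the Sp family that represses Wnt target genes. After CHIRON removal on soft substrates it stood at 168 and 156 CPM at 0 h, 85.8 and 70.7 at 2 h, then 2.37 and 2.46 by 12 h. Stiff substrates gave 134 and 128 CPM at 0 h, 71.7 in the single library at 2 h, then 2.57 and 2.15 by 12 h. Every library at 2 h was below every library at 0 h on the same substrate, and those at 12 h were far lower still, with 38 to 63 counts each. The log2 fold change was −1.06 ± 0.09 (SE) on soft and −0.87 ± 0.11 on stiff substrates at 2 h (edgeR with Benjamini-Hochberg adjustment, adjusted p = 1.26e-05 and 0.00383). The 2 h call on stiff substrates was lost in a fit of only the groups compared (log2 fold change −0.86, adjusted p = 0.927 in edgeR with Benjamini-Hochberg adjustment). At 12 h it was −6.07 ± 0.13 on soft and −5.78 ± 0.13 on stiff substrates (edgeR with Benjamini-Hochberg adjustment, adjusted p = 4.87e-15 and 1.37e-14), or 67.3-fold and 55.1-fold lower. Of the 14097 genes tested, 1 had a lower log2 fold change on soft and 4 on stiff substrates at 12 h. After PD03 removal the 12 libraries held between 63.6 and 81.4 CPM, with log2 fold changes of 0.08 and 0.00 on soft and 0.19 and 0.07 on stiff substrates at 2 h and 12 h, and the groups overlapped apart from stiff at 2 h, whose libraries were both above the 0 h pair. None of these 4 passed edgeR's test in the full set of libraries, but without replicate 2 of stiff at 2 h that log2 fold change was 0.31 (edgeR with Benjamini-Hochberg adjustment, adjusted p = 0.0407).

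*Axin2* (chr11:108920349-108950783, plus strand) encodes a scaffold of the destruction complex. On soft substrates it stood at 187 and 191 CPM at 0 h, 134 and 124 at 2 h, then 30.6 and 30.5 by 12 h after CHIRON removal. The stiff libraries read 171 and 188 CPM at 0 h, 121 (a single library) at 2 h, then 28.5 and 31.9 by 12 h. The 3 times did not overlap on either substrate. At 2 h the log2 fold change was −0.55 ± 0.08 (SE) on soft and −0.57 ± 0.10 on stiff substrates (edgeR with Benjamini-Hochberg adjustment, adjusted p = 0.00248 and 0.0271), and at 12 h it was −2.63 ± 0.09 and −2.57 ± 0.09 (adjusted p = 1.96e-12 and 2.07e-12 by the same edgeR test with Benjamini-Hochberg adjustment). The 2 h call was lost on soft substrates without replicate 2 of 0 h (adjusted p = 0.0638) or of 2 h (0.0906), and on stiff substrates without replicate 2 of 0 h (0.078), with genes of all biotypes (0.0658) and in a fit of only the groups compared (0.927), in edgeR with Benjamini-Hochberg adjustment. With CHIRON still present, after PD03 removal, *Axin2* went the other way by 12 h. Its libraries held 139 and 133 CPM at 0 h, 113 and 121 at 2 h, then 160 and 154 by 12 h on soft substrates, and 123 and 134, 104 and 105, and 146 and 158 CPM on stiff substrates. It was thus lowest at 2 h and highest at 12 h on both substrates. It fell on stiff substrates by 0.30 on the log2 scale at 2 h and rose by 0.24 at 12 h, and on soft substrates it fell by 0.22 and rose by 0.20 (edgeR with Benjamini-Hochberg adjustment, adjusted p = 0.00135, 0.000898, 0.0302 and 0.00551 in that order). The fall on soft substrates at 2 h had an adjusted p of 0.05 to 0.347 (edgeR with Benjamini-Hochberg adjustment) when any 1 of its 4 libraries was left out and passed in none of these fits. The fall on stiff substrates was lost without replicate 2 of 0 h (0.0981), and the rise on soft substrates without replicate 2 of 0 h (0.0647) or replicate 1 of 12 h (0.0548). An antisense gene, *Gm11670*, overlaps 209 bases of *Axin2* (3.8% of its exons). Its own counts ranged from 0 to 21, and whether the counting kept the strands apart was not given in the sources used here.

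*Sp5* and *Axin2* were the members that passed at 2 h, and the 250 bases before their start sites are shown, from RefSeq on GRCm38.p6. Both strands were searched for the heptamer CTTTGWW (W is A or T), the core sequence bound by TCF/LEF factors. Such windows were at hand for 6 of the 10 members, *Axin2*, *Nkd1*, *Nkd2*, *Rnf43* (with 2 start sites), *Dkk1* and *Sp5*. Over all 32851 windows of the same length 14.8% held a match and 1.43% held 2 or more. The *Sp5* window (chr2:70474673-70474922, plus strand) held 2, printed in capitals, the first on the opposite strand 222 to 216 bases and CTTTGAT 104 to 98 bases before the start. The *Axin2* window (chr11:108920099-108920348, plus strand) held no match.
Sp5: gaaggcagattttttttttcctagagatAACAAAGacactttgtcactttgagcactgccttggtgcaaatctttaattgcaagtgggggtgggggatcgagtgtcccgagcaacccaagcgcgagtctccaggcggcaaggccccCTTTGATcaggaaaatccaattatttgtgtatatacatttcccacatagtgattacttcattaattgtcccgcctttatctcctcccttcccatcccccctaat
Axin2: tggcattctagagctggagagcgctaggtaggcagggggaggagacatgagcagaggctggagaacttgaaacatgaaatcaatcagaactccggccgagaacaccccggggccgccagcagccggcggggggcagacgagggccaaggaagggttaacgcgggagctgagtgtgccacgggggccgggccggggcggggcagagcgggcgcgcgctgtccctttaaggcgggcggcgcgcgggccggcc
The *Dkk1* window (chr19:30549497-30549746, minus strand) also held 2 matches, both on the strand of the gene, 117 to 111 bases and 98 to 92 bases before the RefSeq start, in a stretch that reaches into the gene as the other annotation used here places it (chr19:30545863-30549665). The windows of *Nkd1*, *Nkd2* and *Rnf43* held no match, but those of *Nkd1* and *Rnf43* lie inside the genes as that annotation places them. A match is a string of letters and not a measured binding site.

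The NKD proteins bind Dishevelled and inhibit signalling upstream of the destruction complex. *Nkd1* held 10.2 and 7.55 CPM at 0 h, 8.39 and 9.68 at 2 h, then 3.65 and 3.5 by 12 h after CHIRON removal on soft substrates. Cells on stiff substrates gave 5.74 and 6.76 CPM at 0 h, 8.11 at 2 h, then 2.77 and 2.37 by 12 h. The 12 h libraries were below all the others on both substrates, whereas at 2 h the libraries lay within the range of 0 h on soft and above it on stiff substrates. The log2 fold change at 2 h was 0.03 ± 0.19 (SE) on soft and 0.38 ± 0.23 on stiff substrates, which did not pass, and at 12 h it was −1.30 ± 0.20 and −1.28 ± 0.22 (edgeR with Benjamini-Hochberg adjustment, adjusted p = 0.0002 and 0.000568). After PD03 removal on soft substrates *Nkd1* had 63 and 67 counts at 0 h and 27 in each library at 2 h, a log2 fold change of −0.95 ± 0.26 (edgeR with Benjamini-Hochberg adjustment, adjusted p = 0.048). This call was lost when any 1 of the 4 libraries was left out (adjusted p = 0.102 to 0.308, edgeR with Benjamini-Hochberg adjustment) and in DESeq2 (0.178). *Nkd2* had few counts, 11 to 43 per library in CHIRON removal. Its log2 fold change 12 h after CHIRON removal was 0.93 ± 0.44 on soft and 1.16 ± 0.46 on stiff substrates, with all 12 h libraries above those of 0 h, but it did not pass (edgeR with Benjamini-Hochberg adjustment, adjusted p = 0.161 and 0.0978).

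The secreted antagonists *Dkk1* and *Notum* moved in opposite directions. *Dkk1*, which blocks the co-receptors Lrp5 and Lrp6, held 5.9 and 6.01 CPM at 0 h, 3.77 and 3.96 at 2 h, then 2 and 1.62 by 12 h on soft substrates after CHIRON removal. On stiff substrates the level was 5.74 and 6.98 CPM at 0 h, 3.83 at 2 h, then 1.9 and 1.94 by 12 h. Its libraries separated completely by time on both substrates. At 2 h the log2 fold changes of −0.62 ± 0.22 (SE) on soft and −0.73 ± 0.27 on stiff substrates did not pass (edgeR with Benjamini-Hochberg adjustment, adjusted p = 0.354 and 0.586), and at 12 h those of −1.69 ± 0.23 and −1.72 ± 0.24 did (5.89e-05 and 5.19e-05 by the same edgeR test with Benjamini-Hochberg adjustment). After PD03 removal *Dkk1* ranged from 3.78 to 6.95 CPM and did not pass the test at either time.

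*Notum* (chr11:120653788-120661175, minus strand) encodes a secreted enzyme that removes the lipid from Wnt ligands. On soft substrates it stood at 34.7 and 36.3 CPM at 0 h, 33.3 and 33.3 at 2 h, then 50.4 and 51.1 by 12 h after CHIRON removal. Stiff substrates gave 34.4 and 33.8 CPM at 0 h, 34.4 at 2 h, then 55.4 and 60.6 by 12 h. The 12 h libraries were above all others of the experiment, and it was the 1 member that rose against 0 h on both substrates, by a log2 fold change of 0.51 ± 0.09 (SE) on soft and 0.76 ± 0.09 on stiff substrates (edgeR with Benjamini-Hochberg adjustment, adjusted p = 0.000463 and 8.94e-06). After PD03 removal it went from 103 and 101 CPM to 86.8 and 89.7 at 12 h on soft substrates and from 105 and 97.7 to 73.5 and 78.6 on stiff substrates. Here all 12 h libraries were below those of 0 h, and it fell by 0.21 and 0.42 on the log2 scale (edgeR with Benjamini-Hochberg adjustment, adjusted p = 0.00553 and 1.45e-06). The call on soft substrates was lost without replicate 1 of 12 h (edgeR with Benjamini-Hochberg adjustment, adjusted p = 0.0701). The antisense genes *Notumos* and *Myadml2os* overlap 918 exonic bases of *Notum* (38.1%), and *Notumos* had 7 to 39 counts in CHIRON removal and 16 to 47 in PD03 removal, against 547 to 1991 for *Notum*. In raw counts, not scaled for depth, *Notumos* moved the same way as *Notum*. By 12 h of CHIRON removal it went from 7 and 17 to 39 and 25 on soft substrates. Stiff substrates gave 15 and 16 at 0 h and 33 and 39 at 12 h. By 12 h of PD03 removal it went from 43 and 47 to 21 and 17 on stiff substrates. On soft substrates it had 45 and 29 at 0 h and 20 and 28 at 12 h, where replicate 2 hardly changed. Reads of the overlapping genes cannot be told apart here.

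At the cell surface, *Znrf3* and *Rnf43* encode E3 ubiquitin ligases that remove Frizzled receptors, *Lgr5* an R-spondin receptor, and *Apcdd1* a membrane-bound inhibitor. *Rnf43* was low and fell furthest of the 4. It had 41 and 21 counts at 0 h, 17 and 31 at 2 h, then 5 and 7 by 12 h on soft substrates, and 31 and 21 counts at 0 h, 27 at 2 h, then 1 and 2 by 12 h on stiff substrates. The 12 h libraries were below all the others. On soft substrates the log2 fold change at 12 h was −2.27 ± 0.60 (SE, edgeR with Benjamini-Hochberg adjustment, adjusted p = 0.0137). It was smaller, −1.62, without replicate 1 of 0 h and −1.65 without replicate 1 of 12 h, and the call was lost in both fits. On stiff substrates 3 counts at 12 h against 52 at 0 h made *Rnf43* 17.8 times lower after scaling for depth (exact 95% interval 5.78 to 89.3, counting error only), and it passed the test (edgeR with Benjamini-Hochberg adjustment, adjusted p = 0.00136). After PD03 removal it had 3 to 16 counts and did not pass.

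*Znrf3* changed less than *Rnf43*. It held 74.6 and 77.3 CPM at 0 h, 73.5 and 66.1 at 2 h, then 58.8 and 51.5 by 12 h on soft substrates after CHIRON removal. The stiff libraries read 68.3 and 79.3 CPM at 0 h, 76 at 2 h, then 58.8 and 57.5 by 12 h. Both 12 h libraries lay below both 0 h libraries on each substrate. The log2 fold change was −0.46 ± 0.09 (SE) on soft and −0.34 ± 0.09 on stiff substrates (edgeR with Benjamini-Hochberg adjustment, adjusted p = 0.00227 and 0.0171). On stiff substrates the call was lost without replicate 2 of 0 h (0.163), replicate 1 of 12 h (0.0629) or replicate 2 of 12 h (0.116), in edgeR with Benjamini-Hochberg adjustment. After PD03 removal *Znrf3* went from 31.5 and 30.7 CPM to 35.3 and 37.3 at 12 h on soft substrates and from 26.4 and 28 to 35.4 and 37.1 on stiff substrates. It rose by a log2 fold change of 0.22 ± 0.08 and 0.41 ± 0.08 (edgeR with Benjamini-Hochberg adjustment, adjusted p = 0.0346 and 0.000226). The rise on soft substrates was lost without replicate 1 of 0 h (0.0871), replicate 2 of 0 h (0.136) or replicate 2 of 12 h (0.2) and in DESeq2 (0.093).

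*Apcdd1* was at 43.6 to 61.3 CPM throughout CHIRON removal, with a log2 fold change at 12 h of 0.05 ± 0.11 (SE) on soft and 0.32 ± 0.11 on stiff substrates (edgeR with Benjamini-Hochberg adjustment, adjusted p = 0.797 and 0.0514). It passed on stiff substrates with no filter on low counts (0.0259), in a fit of only the groups compared (0.0485) and without replicate 1 of 0 h (0.0108, edgeR with Benjamini-Hochberg adjustment), whose 53.8 CPM was above the 43.6 of replicate 2. After PD03 removal it went from 45.4 and 48 CPM to 31.6 and 34.1 at 12 h on soft substrates and from 41 and 47.4 to 31.5 and 34.8 on stiff substrates. Every 12 h library was below every 0 h library, and it fell by 0.51 and 0.42 on the log2 scale (edgeR with Benjamini-Hochberg adjustment, adjusted p = 3.42e-05 and 0.000253). *Lgr5* had 23 to 51 counts in the libraries of CHIRON removal, with log2 fold changes of −0.28 ± 0.32 and 0.00 ± 0.34 at 12 h, and these did not pass. In PD03 removal it had 0 to 3 counts in all 12 libraries (0 to 0.239 CPM), too few to be tested within that experiment.

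**Figure D2:**
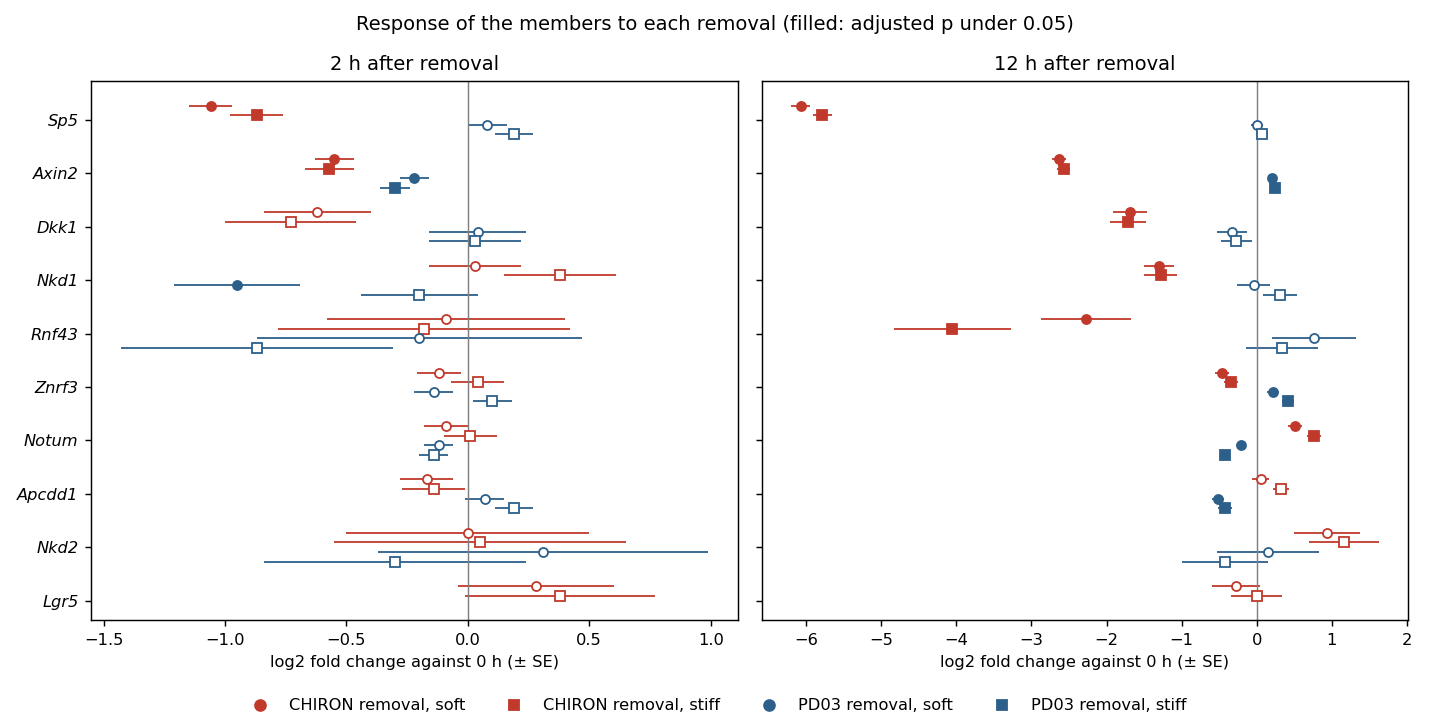
Log2 fold change against 0 h of each member (horizontal axes, with SE bars) at 2 h (left) and 12 h (right) after CHIRON removal (red) and PD03 removal (blue) on soft (circles) and stiff (squares) substrates, filled where the adjusted p was under 0.05. At 12 h *Sp5* lies at −6.07 and −5.78 after CHIRON removal and at 0.00 and 0.07 after PD03 removal, for which *Lgr5* has no value.

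PD03 removal left CHIRON in the medium. At 2 h, 2 of 9 members tested fell on soft substrates, *Axin2* and *Nkd1*, where 1.96% of 13405 genes were called and 0.649% as lower, and 1 of 9, *Axin2*, fell on stiff substrates, where 2.73% were called and 0.895% as lower. At 12 h *Axin2* and *Znrf3* rose and *Notum* and *Apcdd1* fell on each substrate. These were 2 of 9 in each direction, where 29.4% of all genes were called on soft substrates (14.1% higher, 15.3% lower) and 38.4% on stiff substrates (18.5% higher, 19.9% lower). The members' count at 12 h is thus near that of genes at large and says little of these genes in particular. The median log2 fold change of the 9 members at 12 h was 0.00 on soft and 0.07 on stiff substrates. The make-up of the libraries moved over the same time. *mt-Rnr2*, the gene with the most counts, had 4.59 to 5.62% of all counts at 0 h and 8.2 to 9.67% at 12 h. Protein-coding genes had 76.7 to 77.5% at 0 h and 73.1 to 74.5% at 12 h. In CHIRON removal *Gm26917* had the most counts in the libraries used. It had 3.4% of all counts in replicate 1 of soft at 12 h and 9.5% in replicate 2, and 5.24 to 8.06% in the others. Protein-coding genes had 85.3% and 78% in these 2 soft libraries at 12 h. Whether any of this bears on the members was not tested.

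The difference between the responses to the removals was tested in a single model of all 23 libraries and 14312 genes, as the change from 0 h after CHIRON removal minus that after PD03 removal. The 10 members in this model include *Lgr5*, which had 0 to 3 counts in each library of PD03 removal. It passed the filter through its counts in CHIRON removal, so whether its responses differed could not be judged. At 2 h, 1 of 10 members, *Sp5*, had a lower response to CHIRON removal on soft substrates, where 0.866% of genes were called and 0.475% as lower. The same gene was the 1 of 10 called on stiff substrates, where 0.804% were called and 0.566% as lower. At 12 h the response of 6 members was lower (*Sp5*, *Axin2*, *Dkk1*, *Nkd1*, *Rnf43*, *Znrf3*) and that of 2 was higher (*Notum*, *Apcdd1*) on soft substrates, where 21.8% of genes were called, 11% as lower and 10.9% as higher. On stiff substrates the same 6 were lower and the same 2 higher, where 24.3% were called, 12.8% as lower and 11.5% as higher. Of the members that passed, *Sp5* differed most, by −1.14 ± 0.13 (SE, log2) on soft and −1.06 ± 0.14 on stiff substrates at 2 h and by −6.09 ± 0.17 and −5.86 ± 0.17 at 12 h (edgeR with Benjamini-Hochberg adjustment, adjusted p = 2.85e-06, 6.03e-05, 1.61e-19 and 7.7e-19). *Axin2* differed by −2.86 ± 0.10 and −2.83 ± 0.10 at 12 h (edgeR with Benjamini-Hochberg adjustment, adjusted p = 2.13e-17 and 3.22e-17), and its difference at 2 h, −0.33 ± 0.10 and −0.27 ± 0.11, did not pass (0.116 and 0.332). *Notum* responded in opposite directions, a difference of 0.70 ± 0.09 on soft and 1.16 ± 0.09 on stiff substrates at 12 h (edgeR with Benjamini-Hochberg adjustment, adjusted p = 2.39e-06 and 4.63e-10). The difference of *Rnf43* on soft substrates, −3.05 ± 0.82 (edgeR with Benjamini-Hochberg adjustment, adjusted p = 0.00797), was lost without replicate 1 of soft at 12 h of CHIRON removal (0.0573) or of PD03 removal (0.065). With the shallow library put back, the differences of *Sp5* on stiff substrates at 2 h (0.0539) and of *Rnf43* and *Apcdd1* on soft substrates at 12 h (0.0523 and 0.125) did not pass.

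The course between 2 h and 12 h after CHIRON removal was tested directly. On soft substrates 6 of 10 members fell from 2 h to 12 h and *Notum* rose, where 17.9% of genes were called, 8.29% as lower and 9.62% as higher. On stiff substrates, against a single 2 h library, 6 fell and *Notum* and *Apcdd1* rose, where 10.9% were called, 5.35% as lower and 5.57% as higher. The 6 were those that were lower at 12 h than at 0 h on each substrate. *Sp5* fell by 5.02 on the log2 scale on soft and by 4.92 on stiff substrates over these hours, and *Axin2* by 2.08 and 2.00 (edgeR with Benjamini-Hochberg adjustment, adjusted p = 1.46e-13, 9.59e-13, 4.55e-11 and 7.01e-10). *Nkd1*, which had not passed at 2 h, fell by 1.33 and 1.65 (edgeR with Benjamini-Hochberg adjustment, adjusted p = 0.000208 and 0.000271). Calls lost without 1 library (edgeR with Benjamini-Hochberg adjustment) were *Znrf3* on soft substrates without replicate 2 of 12 h (adjusted p = 0.146) or replicate 1 of 2 h (0.115), and *Rnf43* on soft substrates without replicate 1 of 12 h (0.201) or replicate 2 of 2 h (0.16). On stiff substrates they were *Znrf3*, *Dkk1* and *Apcdd1* without replicate 1 of 12 h (0.0907, 0.11 and 0.0995) or replicate 2 of 12 h (0.14, 0.112 and 0.135), and *Rnf43* without replicate 1 of 12 h (0.0671). *Dkk1* on stiff substrates was also lost in DESeq2 (0.0556), and *Znrf3* and *Apcdd1* with genes of all biotypes (0.0716 and 0.0588). With the shallow library put back, *Axin2* on soft and stiff substrates (0.0523 and 0.215), *Notum*, *Dkk1*, *Znrf3* and *Rnf43* on soft substrates (0.0559, 0.0539, 0.589 and 0.259) and *Dkk1*, *Znrf3*, *Rnf43* and *Apcdd1* on stiff substrates (0.155, 0.697, 0.097 and 0.39) did not pass.

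Whether the response to CHIRON removal depended on the substrate was asked by setting soft against stiff libraries of that removal. The same was not asked of PD03 removal. By edgeR, 0 of 10 members and 0% of the 14097 genes passed at 0 h, 2 h or 12 h or in the difference in response at 2 h or 12 h. DESeq2 called 0 genes in each, and 492, 805, 462, 422 and 416 genes in that order had an unadjusted p under 0.05 in edgeR. Where nothing differs, a share of 0.05 of the 14097 genes would be under that value. At 0 h *Sp5* was at 168 and 156 CPM on soft and 134 and 128 on stiff substrates, without overlap, a log2 difference of 0.31 ± 0.09 (SE) that did not pass (edgeR with Benjamini-Hochberg adjustment, adjusted p = 0.999). In the response at 12 h the difference between substrates, soft minus stiff, was −0.06 for *Axin2* (95% interval −0.31 to 0.19), −0.29 for *Sp5* (−0.76 to 0.19), −0.11 for *Znrf3* (−0.40 to 0.17) and −0.25 for *Notum* (−0.51 to 0.01) on the log2 scale. The intervals were wider for the members of few counts, from −0.56 to 4.12 for *Rnf43* and from −1.58 to 1.13 for *Nkd2*. The intervals hold the differences that these libraries do not exclude at 95%.

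**Figure D3:**
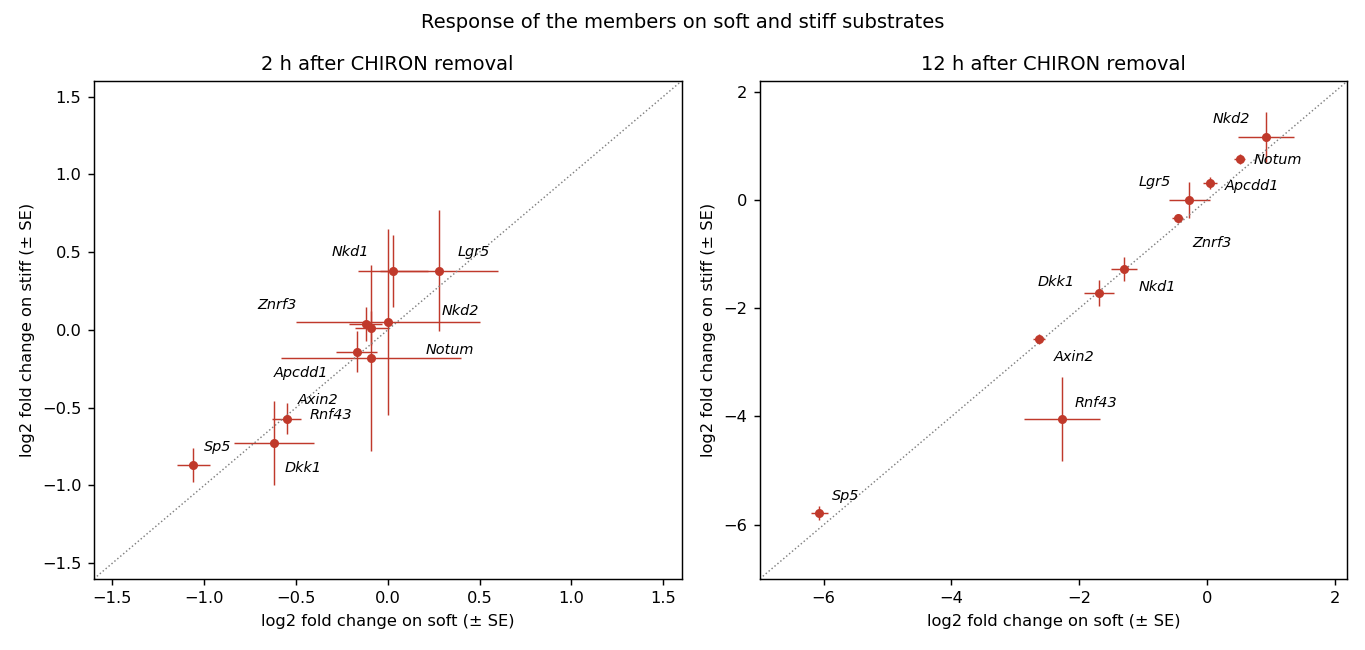
Log2 fold change of the 10 members after CHIRON removal on soft (horizontal axes) and stiff (vertical axes) substrates at 2 h (left) and 12 h (right), each against its own 0 h libraries, with SE bars and a dotted line of equal change. At 12 h *Sp5* (−6.07 and −5.78) and *Axin2* (−2.63 and −2.57) lie near the line, and *Rnf43* (−2.27 and −4.05), which has 1 and 2 counts on stiff substrates, lies below it.

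Other genes of the pathway were taken from fixed lists and tested in the same fits, in which 12 h and 2 h share their 0 h libraries. Of 13 further antagonists tested, 4 rose and 0 fell by edgeR on each substrate 12 h after CHIRON removal, where 10.4% of all genes rose on soft and 9.48% on stiff substrates, and those called on both were *Sfrp5*, *Sfrp4* and *Sfrp1*, secreted proteins that bind Wnt ligands. After PD03 removal 3 of 12 rose and 1 fell on soft substrates, where 14.1% of all genes rose and 15.3% fell, and 2 rose and 2 fell on stiff substrates, where 18.5% rose and 19.9% fell. The difference between the removals at 12 h passed for 3 of 15 on soft (2 higher, 1 lower) and 5 of 15 on stiff substrates (3 higher, 2 lower), where 21.8% and 24.3% of all genes passed, so the list as a whole was near the share of genes at large on soft substrates. *Sfrp1* went from 211 ± 4.86 to 360 ± 28.6 CPM on soft substrates (SD, n = 2), a log2 fold change of 0.77, and fell by 0.49 after PD03 removal, a difference of 1.24 between the removals (edgeR with Benjamini-Hochberg adjustment, adjusted p = 3.05e-09). Of 16 receptors and R-spondins tested, *Fzd2* alone was called on both substrates and rose by 1.21 on soft and 1.34 on stiff substrates. Of 12 genes of signal transduction, 0 passed on soft substrates by edgeR and 1 rose and 1 fell on stiff substrates. Over all genes 18.5% were called on soft and 17.6% on stiff substrates. Of 8 TCF/LEF factors and cofactors, 3 rose and 2 fell on each substrate after CHIRON removal. Of all genes 10.4% rose and 8.02% fell there on soft substrates, and 9.48% and 8.15% on stiff substrates. After PD03 removal 4 rose on soft and 6 on stiff substrates, beside the 14.1% and 18.5% of all genes that rose there. The difference between the removals was lower for 2 of the 8 on soft substrates, where 21.8% of all genes passed. On stiff substrates it was lower for 2 and higher for 1, where 24.3% passed. At 12 h of CHIRON removal *Lef1* fell by 2.25 on soft and 1.41 on stiff substrates and *Tcf7* by 1.14 and 1.07 on the log2 scale. In contrast *Tcf7l2* rose by 0.72 and 0.77 and *Tcf7l1*, the main repressor of this family in mESCs, rose by 0.50 and 0.58. At 0 h on soft substrates *Tcf7l2* had 51.9 CPM in the experiment of CHIRON removal and 4.96 in that of PD03 removal, and *Tcf7l1* 515 and 23.3, levels from experiments whose sequencing pool cannot be told apart from the experiment. The rises of *Tcf7l2* and *Tcf7l1* did not pass as differences from PD03 removal, on soft (0.62 and 0.28) or stiff substrates (0.38 and 0.25; edgeR with Benjamini-Hochberg adjustment, adjusted p = 0.0563, 0.204, 0.25 and 0.248).

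Of 11 other known Wnt targets tested, 5 fell on soft and 4 on stiff substrates at 12 h, where 8.02% and 8.15% of all genes fell. *Cdx2*, a homeobox gene, had 204 counts over the 0 h libraries and 4 over those of 12 h on soft substrates (4 in replicate 1 and 0 in replicate 2), 49 times lower after scaling for depth (exact 95% interval 18.9 to 182, counting error only), and 196 and 2 counts on stiff substrates, 101 times lower (27.6 to 839). The value on soft substrates rests on replicate 1 of 12 h, without which there are 0 counts and no ratio. *T*, the mesoderm gene Brachyury, went from 358 to 12 counts on soft and from 304 to 5 on stiff substrates, 28.7 times (16.2 to 56) and 62.6 times (26.5 to 194) lower. *Cdx1* fell by 3.92 and 4.18 and *Myc* by 2.28 and 1.51 on the log2 scale. After PD03 removal *Cdx1*, *Cdx2*, *T* and *Myc* rose on soft substrates at 12 h, by 0.60, 0.39, 1.38 and 1.40. These 4 genes did not pass at 2 h after CHIRON removal, but the log2 fold change of *Cdx2*, −0.62 ± 0.34 on soft and −0.87 ± 0.41 on stiff substrates, was as large as that of *Axin2* (−0.55 and −0.57). *Cdx2* was also lower at 2 h of PD03 removal, with CHIRON still present. Its mean there went from 14.6 to 9.79 CPM on soft and from 14 to 9.41 on stiff substrates. Whether the time course of these 4 genes differed from that of *Sp5* or *Axin2* was not tested.

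**Figure D4:**
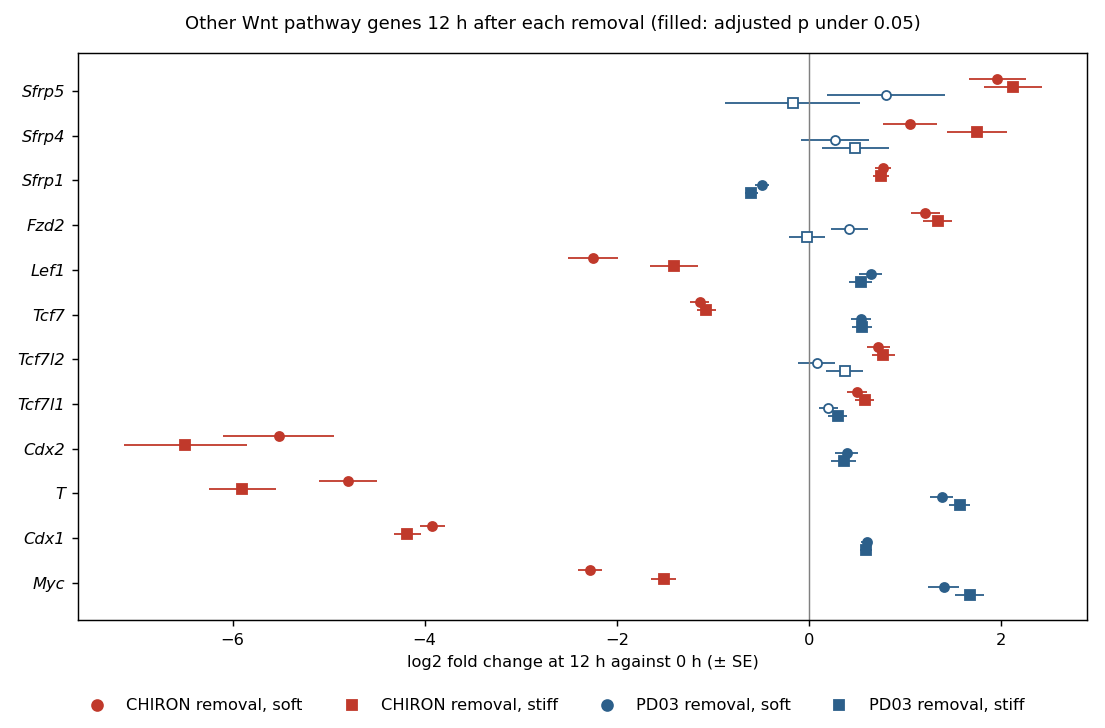
Log2 fold change at 12 h against 0 h (horizontal axis, with SE bars) of the 12 Wnt pathway genes outside the feedback set that were named by rule, after CHIRON removal (red) and PD03 removal (blue) on soft (circles) and stiff (squares) substrates, filled where the adjusted p was under 0.05. *Cdx1* lies at −3.92 and −4.18 after CHIRON removal, where *Sfrp1*, *Sfrp4*, *Sfrp5* and *Fzd2* lie to the right of 0.

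To find genes that moved like the members, the log2 CPM of each gene was centred on the mean of its experiment and compared with the mean profile of the 10 members over the 23 libraries. The 5 other genes with the highest Pearson r were *Bdh1* (0.977), *Grsf1* (0.971), *Frmd4b* (0.969), *Tdh* (0.969) and *Nefl* (0.968), a description over libraries that share times and substrates. Over the 11 libraries of CHIRON removal alone these r were between 0.985 and 0.995, and over the 12 of PD03 removal between −0.024 and 0.73. *Bdh1*, a ketone body dehydrogenase, fell by 1.64 on soft and 1.62 on stiff substrates 12 h after CHIRON removal, and *Tdh*, the threonine dehydrogenase of mESCs, by 1.06 and 1.12 on the log2 scale. At 2 h none of these 5 passed edgeR's test after CHIRON removal. In the difference between the removals at 2 h on soft substrates *Nefl* alone of the 5 passed (−0.55, edgeR with Benjamini-Hochberg adjustment, adjusted p = 0.00283). *Nefl* also rose 2 h after PD03 removal, by 0.28 on soft and 0.23 on stiff substrates. Each member is part of the mean profile, which raises its own r, so the r of members cannot be set against those of the 5 genes. The members ranged in r from 0.975 for *Sp5* and 0.961 for *Axin2* through 0.902 for *Dkk1*, 0.89 for *Rnf43*, 0.844 for *Nkd1* and 0.658 for *Znrf3* to −0.538 for *Nkd2* and −0.864 for *Notum*. In CHIRON removal the mean profile follows *Sp5* most (r of 0.996), since its change there is largest. In PD03 removal it does not, with an r of −0.445 for *Sp5*. There the r was highest for *Nkd2* (0.893) and *Rnf43* (0.618), members of few counts, so that part of the profile rests largely on low counts.

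**Figure D5:**
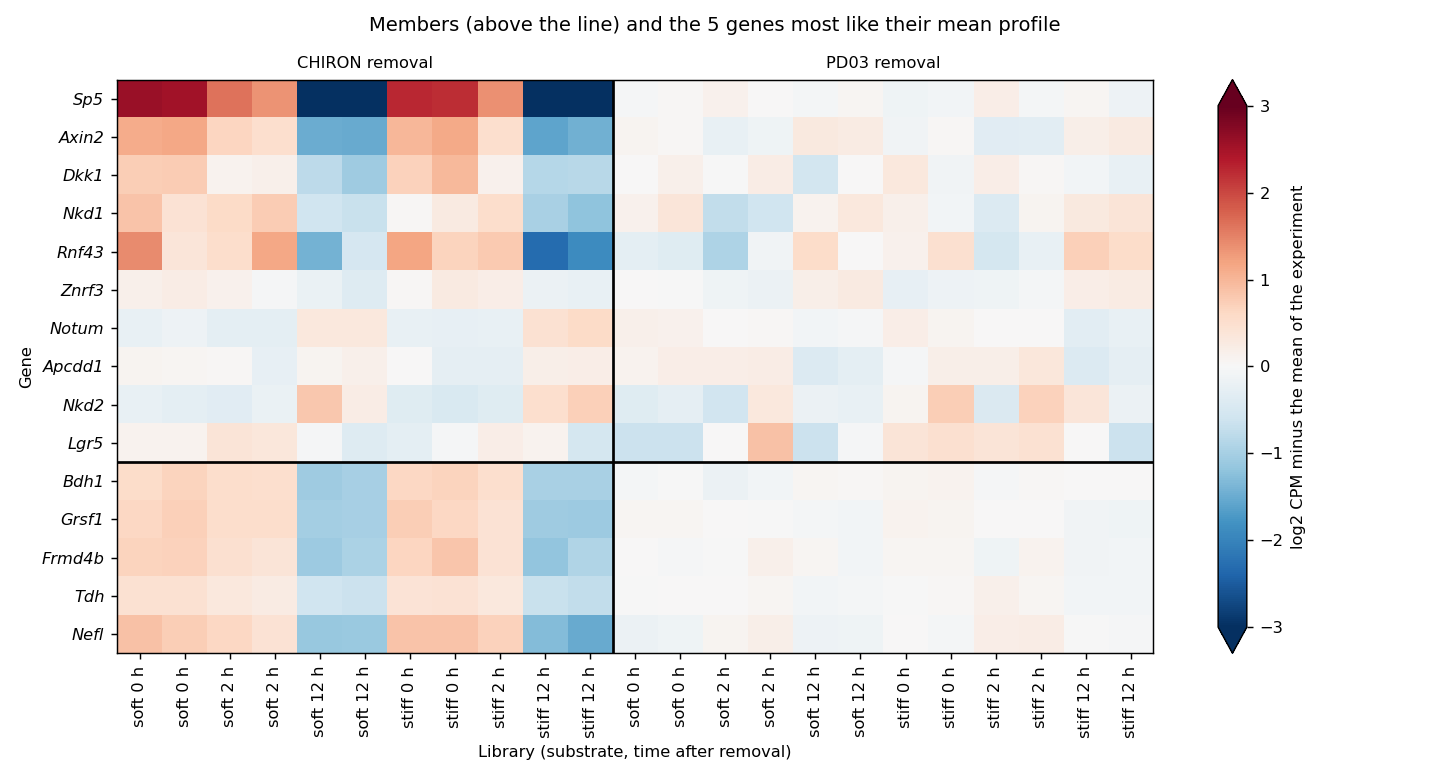
Log2 CPM minus the mean of the experiment (colour, limited to the range of the scale bar) of the 10 members, above the line, and of the 5 genes most like their mean profile, below it, in the 23 libraries (horizontal axis, by substrate and hours after removal). The libraries at 12 h after CHIRON removal are blue for *Sp5*, *Axin2*, *Dkk1*, *Nkd1*, *Rnf43* and the 5 genes, and red for *Notum* and *Nkd2*.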

How the data were processed

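The authors aligned reads to GRCm38 (mm10) with TopHat 2.1.0, counted reads per gene with featureCounts 1.5.0 on Ensembl 86, as the submitters' notes and methods state, and deposited the counts without normalisation, in a table per removal. The table of PD03 removal held 12 further columns and 23 empty lines, which were not used, and 15 of its symbols looked like dates. Members were matched by symbol, and biotypes, positions and exon lengths came from GENCODE M21.

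In R 4.3.3, edgeR 4.0.16 kept protein-coding genes by filterByExpr (at least 10 counts, 15 in total, a group of 1 library not used to set the filter), scaled them by TMM and fitted its quasi-likelihood model. There was 1 fit for each removal with its 6 groups and 1 joint fit of 23 libraries. P-values were adjusted over all genes by Benjamini-Hochberg (threshold 0.05), and the SE was the log2 fold change over the square root of F. The lone stiff library at 2 h was assumed to vary like the other groups. These did not all vary alike. The chi-square per degree of freedom between replicates was 6.56 to 19.7 in CHIRON removal, highest in stiff at 0 h. In PD03 removal it was 2.23 to 3.24. Log2 CPM had a prior count of 2. Intervals of low counts were exact binomial at 95%.

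The members, the gene lists and the rule for naming genes were chosen with earlier results of these data known. All members were named, with at most 4 genes of each other list that passed at 12 h of CHIRON removal on both substrates in the same direction (by fold change on soft substrates) and the 5 most similar genes. Alternatives were DESeq2 1.42.0, its size factors, no filter, all genes, the shallow library, a replicate block, only the groups compared, and leaving out each library. Fits were run on simulated data, for which no outcome is given here. Tables and figures came from Python 3.11.15 with matplotlib 3.10.9, scipy 1.17.1, pandas 2.3.3 and numpy 2.4.6, and limma was 3.58.1.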

Additional observations from a re-analysis of the deposited data

Results flagged for a closer look

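The responses of 8 members to the removals differed by a test of the difference itself. At 2 h this was *Sp5*, with a log2 difference (CHIRON removal minus PD03 removal) of −1.14 on soft and −1.06 on stiff substrates. At 12 h on soft substrates the differences were −6.09 for *Sp5*, −2.86 for *Axin2*, −1.38 for *Dkk1*, −1.27 for *Nkd1*, −3.05 for *Rnf43*, −0.70 for *Znrf3*, 0.70 for *Notum* and 0.54 for *Apcdd1*. On stiff substrates they were −5.86 for *Sp5*, −2.83 for *Axin2*, −1.47 for *Dkk1*, −1.61 for *Nkd1*, −4.40 for *Rnf43*, −0.77 for *Znrf3*, 1.16 for *Notum* and 0.72 for *Apcdd1*. The difference of *Rnf43* on stiff substrates rests on 3 counts at 12 h.

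The change from 0 h also differed between 2 h and 12 h after CHIRON removal. From 2 h to 12 h on soft substrates the log2 change was −5.02 for *Sp5*, −2.08 for *Axin2*, −1.07 for *Dkk1*, −1.33 for *Nkd1*, −2.18 for *Rnf43*, −0.34 for *Znrf3* and 0.61 for *Notum*. On stiff substrates it was −4.92 for *Sp5*, −2.00 for *Axin2*, −0.99 for *Dkk1*, −1.65 for *Nkd1*, −3.88 for *Rnf43*, −0.39 for *Znrf3*, 0.75 for *Notum* and 0.46 for *Apcdd1*. *Apcdd1* did not pass against 0 h after CHIRON removal (0.05 on soft and 0.32 on stiff substrates), and it fell after PD03 removal (−0.51 and −0.42). Its change from 2 h to 12 h on stiff substrates was lost without either 12 h library. The rise of *Notum* and the fall of *Nkd1* after 2 h are what a reader may want to look at again.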

How the results depend on the processing

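No result reversed under any alternative, and DESeq2's size factors in edgeR changed no member's call and no count by over 1.5 times. The causes of the moves below were not tested. DESeq2 called 49 genes in place of 26 at 2 h and 24 in place of 14 on soft and stiff substrates after CHIRON removal, and after PD03 removal on soft substrates 0 members fell at 2 h in place of 2 and 1 rose at 12 h in place of 2 (edgeR had 3 members at an unadjusted p under 0.05 at 2 h). Without the filter 144 and 89 genes were called at 2 h, 2 members rose at 12 h on stiff substrates in place of 1, 1 rose at 12 h on soft substrates after PD03 removal in place of 2, soft minus stiff had 17, 54 and 15 genes at 0 h, 2 h and 12 h and the response 14 and 7 at 2 h and 12 h in place of 0, and the difference between removals at 2 h had 230 and 258 genes in place of 124 and 115. With all genes, at 2 h on stiff substrates 8 genes were called in place of 14 and 1 member fell in place of 2, 1 member rose from 2 h to 12 h on stiff substrates in place of 2, and 1 fell at 2 h on soft substrates after PD03 removal in place of 2. With only the groups compared 48 genes were called at 2 h on soft substrates and by edgeR 0 genes and 0 members on stiff substrates (995 genes and 3 members had an unadjusted p under 0.05 in the fit of all groups, and DESeq2 called 24 genes), 2 members rose at 12 h on stiff substrates, soft minus stiff at 2 h had 30 genes and the difference between removals at 2 h on stiff substrates had 64.

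Libraries of the same replicate number were not pairs in the data. Over 10 pairs in CHIRON removal the deviations of same-numbered libraries correlated between −0.116 and 0.0591, and over 15 pairs in PD03 removal between −0.053 and 0.113, with 1 over 0.1. With the replicate block 4 genes were called at 2 h on stiff substrates in place of 14, with 1 member that fell in place of 2 (*Axin2*, adjusted p = 0.112 in edgeR with Benjamini-Hochberg adjustment), and 1 member rose from 2 h to 12 h on stiff substrates in place of 2. The block also left *Znrf3*, *Dkk1* and *Apcdd1* short of the threshold from 2 h to 12 h on stiff substrates (0.0664, 0.0669 and 0.0838), and it changed no other member's call.

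With the shallow library the counts of calls in CHIRON removal dropped. At 2 h 1 gene and 0 members were called on soft substrates and 0 and 0 on stiff substrates by edgeR. At 12 h 457 genes were called on soft substrates, with 0 members that rose, and 461 on stiff substrates. From 2 h to 12 h 372 genes were called on soft substrates (0 members rose, 2 fell) and 207 on stiff substrates (1 rose, 2 fell). The difference between removals had 25 and 22 genes at 2 h on soft and stiff substrates, with 0 members lower on stiff substrates, and 940 and 1215 genes at 12 h, with 1 member higher on soft substrates. In the fits without this library, 1272 and 995 genes had an unadjusted p under 0.05 at 2 h.

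The lone 2 h library on stiff substrates after CHIRON removal could not be left out. Leaving out 1 other library at a time gave, after CHIRON removal, 9 to 18 genes and 1 to 2 members that fell at 2 h on soft substrates and 5 to 28 genes and 1 to 2 members on stiff substrates. At 12 h it gave 1395 to 1832 genes on soft and 1303 to 1946 on stiff substrates, where 1 to 2 members rose. From 2 h to 12 h it gave 1325 to 1826 genes on soft substrates, and 764 to 992 genes with 3 to 4 members that fell and 1 that rose on stiff substrates. Soft minus stiff at 0 h gave 0 to 12 genes, and the response 0 to 11 at 2 h and 0 to 8 at 12 h. After PD03 removal it gave 139 to 150 genes at 2 h (0 members fell) and 2619 to 2925 at 12 h (0 to 1 rose, 1 to 2 fell) on soft substrates, and 208 to 277 genes at 2 h on stiff substrates (0 to 1 rose, 0 to 1 fell). The difference between removals gave 48 to 120 genes on soft and 76 to 200 on stiff substrates at 2 h. *Rnf43*, *Nkd2* and *Lgr5* were the lowest of the members at 0 h, and their results rest on few counts.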

Other observations

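Targets of ERK also moved after CHIRON removal, in cells that kept PD03. At 2 h *Spry4*, a feedback inhibitor of receptor tyrosine kinase signalling, fell by 1.00 on soft and 1.26 on stiff substrates on the log2 scale (edgeR with Benjamini-Hochberg adjustment, adjusted p = 0.0212 and 0.0347). The call on stiff substrates did not hold with only the groups compared or with the shallow library put back, where edgeR called no gene. At 12 h 4 of the 7 ERK targets fell on soft substrates and 3 on stiff substrates, where 8.02% and 8.15% of all genes fell. *Spry4* fell by 2.34 and 2.41, *Spry2* by 1.32 and 1.22 and *Etv4* by 0.78 and 0.63 on both, and *Dusp6* by 0.63 on soft substrates. After PD03 removal *Spry4* rose by 3.12 at 2 h on soft substrates.

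The shallow library, replicate 1 of stiff at 2 h after CHIRON removal, had 171333 counts, of which 56.7% fell on protein-coding genes, against 78% to 85.3% in the other libraries of its experiment. Its counts of the members were 6 for *Lgr5*, 3 for *Znrf3*, 1 each for *Axin2*, *Nkd1*, *Notum* and *Dkk1* and 0 for *Sp5*, *Rnf43*, *Nkd2* and *Apcdd1*.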
